A study of Rattus norvegicus with 9 samples.

Results

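Retinal endothelial and mural cell genes were followed through RNA-seq of sorted retinal microglia from control and diabetic rats. The list held 32 genes that mark the cells lining blood vessels (endothelium) or the pericytes and smooth muscle wrapped around them (mural cells), and it was matched by symbol to a table of 28343 genes. Of the 32, 31 matched and 24 had enough counts to be tested. Pecam1 was not analysed here. All rats were Dark Agouti, an inbred strain. At 8 to 10 weeks of age, the diabetic group was given 55 mg/kg of streptozotocin, which destroys the insulin-producing cells of the pancreas, and the control group citrate buffer alone. Both groups had fasted for 12 hours before the injection, and insulin (2 units) was given to diabetic rats with a blood glucose above 30 mmol/l. At 4 weeks whole retinas were digested with papain, cells positive for CD11b were collected by flow sorting, and their RNA was preamplified before sequencing. CD11b is carried by myeloid cells, so the sort was not aimed at vascular cells. There were 5 control libraries (numbered 1, 3, 4, 5 and 6) and 4 diabetic libraries (1, 2, 4 and 5). The labels do not say whether a library came from 1 rat or from several, so p-values measure the spread between these libraries.

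Retinal vessels are sealed by tight junctions between endothelial cells, which form the inner blood-retinal barrier. Pericytes cover the capillaries densely in the retina, and their loss is a classic early lesion of diabetic retinopathy. Vessel growth and stability are governed by VEGF acting on its receptors, by angiopoietins acting on the TIE receptors and by PDGF from endothelium acting on pericytes.

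The list split into genes that were at a like level in every library and genes that were present in a few. A member was called steady when it had at least 10 counts in each of the 9 libraries and its highest normalised level was at most 4 times its lowest. It was called uneven with 10 counts in every library and a larger ratio, and patchy with 10 counts in 1 to 8 libraries. Normalised levels are CPM, that is counts relative to library size, scaled by TMM factors, which correct for differences in library makeup. They are not divided by gene length, so they are compared between libraries and not between genes. There were 9 steady members, namely Kdr, Tek, Tie1, Eng, Egfl7, Ocln, Cdh5, Abcb1a and Cspg4, with highest-to-lowest ratios of 1.31 to 3.34. Flt1, Ramp2 and Igfbp7 were uneven, with ratios of 5.12 to 15.4. The 18 patchy members were Cldn5, Esam, Emcn, Vwf, Slco1a4, Mfsd2a, Sox17, Sox18, Pdgfrb, Rgs5, Notch3, Kcnj8, Abcc9, Tagln, Myl9, Des, Col4a1 and Col4a2. Acta2 reached 10 counts in no library.

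The patchy members were carried mainly by control 1 and control 3. Of the 18, 16 were highest in control 1, and 15 had controls 1 and 3 as their 2 highest libraries. These libraries hold 25.6% of all counts in the study, but 44.1% to 100% of the counts of each patchy member and 24.4% to 30.5% of those of each steady member. Among all genes tested, 7.92% were highest in control 1 and 4.37% had controls 1 and 3 as their 2 highest libraries. Because 2 of the 5 control libraries held most counts of every patchy member but Tagln, tested members whose fold change turned without these 2 are given both ways. They were set apart because patchy members were high in them, so the direction and the p-values of a comparison without them are shaped by that choice.

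**Figure D1:**
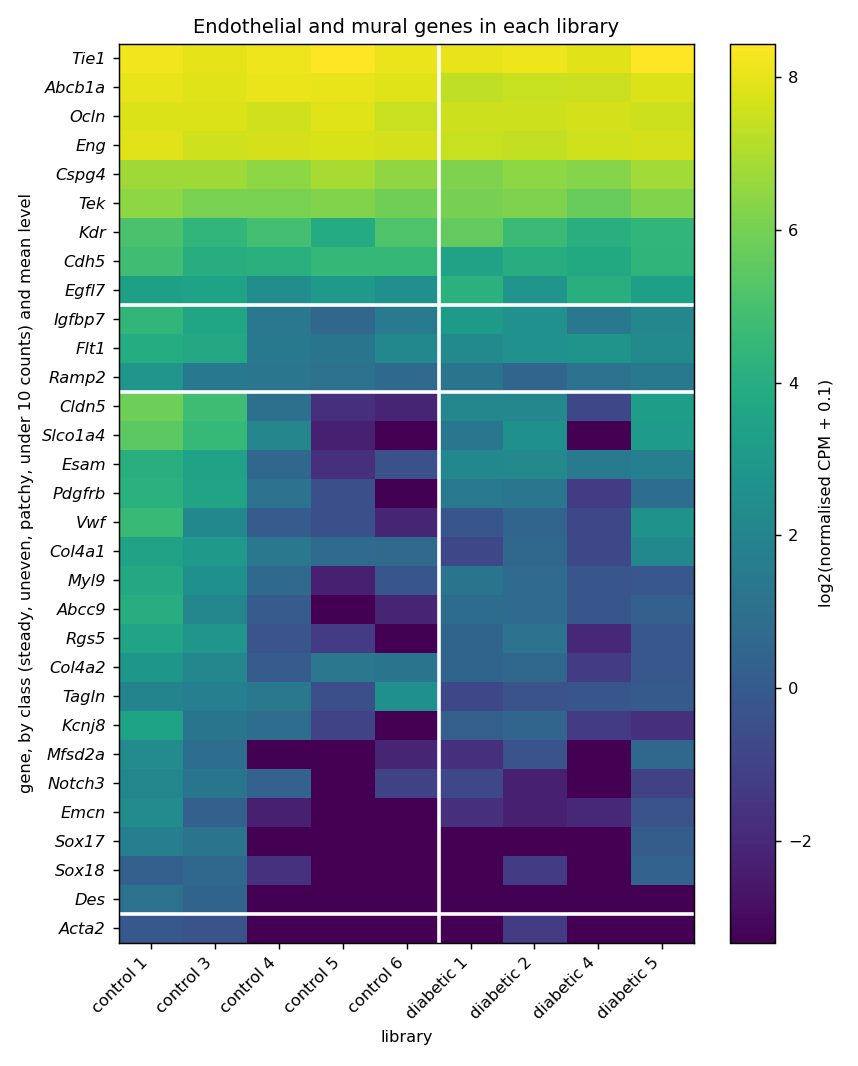
Level of each of the 31 matched genes (rows, grouped as steady, uneven, patchy and under 10 counts) in each library (columns), as log2(normalised CPM + 0.1). White lines separate the classes and the control from the diabetic libraries. The steady genes have even rows, while most patchy genes are bright in control 1 and control 3 and darker elsewhere.

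Promoter windows are shown for members that stood on either side of this split, so that steady and patchy genes can be read next to each other. Of the members, 20 had a window in the RefSeq table for the rat build GRCr8 (21 windows, since Egfl7 has a pair of starts). Each sequence below is the 250 bases before the annotated start, 5′ to 3′ on the strand of the gene. Capitals mark GGAAGT, a common core of the ETS factors that act in endothelium, or its reverse complement ACTTCC. Tie1 (chr5:137304982-137305231, minus strand) and Eng (chr3:36332029-36332278, plus strand) were steady. Cldn5 (chr11:95718599-95718848, minus strand), Slco1a4 (chr4:176495847-176496096, minus strand) and the pericyte gene Rgs5 (chr13:84380827-84381076, plus strand) were patchy.
Tie1: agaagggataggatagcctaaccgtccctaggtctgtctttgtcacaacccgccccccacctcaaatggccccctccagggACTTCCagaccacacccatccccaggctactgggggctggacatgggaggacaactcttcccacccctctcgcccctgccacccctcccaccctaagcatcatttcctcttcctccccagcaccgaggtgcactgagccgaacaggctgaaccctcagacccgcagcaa
Eng: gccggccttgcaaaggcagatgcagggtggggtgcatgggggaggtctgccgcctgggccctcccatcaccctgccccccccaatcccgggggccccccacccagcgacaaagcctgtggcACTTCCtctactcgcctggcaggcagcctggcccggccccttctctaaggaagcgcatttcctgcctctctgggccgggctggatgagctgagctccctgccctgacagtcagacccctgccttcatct
Cldn5: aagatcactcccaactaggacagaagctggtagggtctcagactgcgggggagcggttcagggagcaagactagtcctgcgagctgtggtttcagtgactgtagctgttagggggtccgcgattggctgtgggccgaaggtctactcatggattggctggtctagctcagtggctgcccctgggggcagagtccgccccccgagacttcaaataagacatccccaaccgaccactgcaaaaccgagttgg
Slco1a4: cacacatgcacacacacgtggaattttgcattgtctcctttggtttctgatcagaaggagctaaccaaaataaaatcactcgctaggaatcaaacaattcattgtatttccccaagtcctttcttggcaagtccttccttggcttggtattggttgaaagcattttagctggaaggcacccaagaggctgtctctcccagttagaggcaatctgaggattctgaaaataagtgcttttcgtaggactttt
Rgs5: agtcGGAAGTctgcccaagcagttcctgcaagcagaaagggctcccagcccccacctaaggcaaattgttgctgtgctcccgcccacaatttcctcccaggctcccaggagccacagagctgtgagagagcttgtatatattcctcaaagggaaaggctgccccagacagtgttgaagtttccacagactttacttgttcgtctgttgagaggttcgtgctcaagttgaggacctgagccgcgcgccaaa

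A match to GGAAGT on either strand was found in 4 of 8 windows of steady members, 1 of 10 of patchy members and 1 of 2 of uneven members. The steady Abcb1a, Cspg4 and Ocln, whose windows are not shown, had no match. Over 27457 windows of this length a match was found in 19.5%. The CArG box, the motif of serum response factor in smooth muscle genes, was searched only as the exact form CCWWWWWWGG, where W is A or T. This form had no match in the 21 windows of members, and 1.50% of all windows held one. Near matches, such as ccctatatgg in the Acta2 window, were not counted, and Tagln and Myl9 had no window. GGGCGG, a GC box, had a match in 15 of the 21 windows and in 32.4% of all windows. These matches describe letters in a window and are not sites shown to be bound.

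Among the receptors and signalling genes of endothelium, the TIE receptors were steady. Tek, the receptor for angiopoietins, was at 86.8, 67.1, 67.7, 73.4 and 58.6 CPM in controls 1, 3, 4, 5 and 6 and at 64.3, 70.9, 51.4 and 72.7 in diabetics 1, 2, 4 and 5. Tie1, its partner receptor, was at 287, 244, 282, 334 and 270 in the controls and at 261, 282, 236 and 344 in the diabetics. The groups overlapped for both genes. The log2 fold change, diabetic over control, was −0.12 with an SE of 0.14 for Tek and −0.014 with an SE of 0.12 for Tie1 (adjusted p = 0.625 and 0.962, edgeR's quasi-likelihood test, adjusted by Benjamini-Hochberg). Control 1, which stood far above the rest for the patchy genes, was the highest library for Tek and lay inside the range of the others for Tie1.

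Transcript assemblies gave a second reading of the same libraries. On Rnor6, Tek spans chr5:113725717-113852799 and its reference transcript has 23 exons. Assembled transcripts touched 20 to 22 of them and covered 79.3% to 91.4% of the exonic bases in each of the 9 libraries. Tie1 spans chr5:137294532-137321101, also with 23 exons, of which 22 or 23 were touched in every library, with 94.9% to 100% of the bases. Both TIE receptors were assembled along most of their exons in all 9 libraries. Igfbp7 (chr14:33010300-33070190, 5 exons), an uneven gene, had all of its bases covered in control 1 and 45.1% in control 3, but none in controls 4, 5 and 6 or in diabetic 4. Coverage did not follow the classes in every gene. The steady Ocln had 40.8% of its bases covered in controls 1 and 3 and diabetic 5, measured on a single reference transcript. Another reference transcript of Ocln was listed as assembled in these libraries, so its share depends on the transcript used. The steady Cspg4 had 37.6% in diabetic 4, and the uneven Ramp2 had 100% in control 3 and diabetic 4.

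Kdr, the main VEGF receptor of endothelium, was steady by the ratio rule but varied more than the TIE receptors. It was at 33.3, 21.2, 30.3, 14.7 and 36.0 CPM in the controls and at 48.1, 25.8, 16.2 and 21.0 in the diabetics. The highest library was diabetic 1 and the lowest control 5, and the groups overlapped (log2 fold change 0.045, SE 0.35, adjusted p = 0.956, edgeR's quasi-likelihood test). Its log2 fold change changed sign when control 3 (−0.031), control 5 (−0.11) or diabetic 1 (−0.36) was left out.

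Flt1, the VEGF receptor that also acts as a decoy, did not follow Kdr. It was at 15.4 and 13.5 CPM in controls 1 and 3, at 2.58, 2.25 and 4.38 in controls 4, 5 and 6, and at 4.64, 6.02, 6.69 and 4.70 in the diabetics. The diabetic libraries thus lay between the high and the low controls. The log2 fold change was −0.49 (SE 0.58, adjusted p = 0.664, edgeR's quasi-likelihood test) with all 9 libraries. Without controls 1 and 3 it was 0.85 (SE 0.32, adjusted p = 0.126), and the groups did not overlap. In that comparison 11.1% of all genes had every diabetic library above every control. Controls 1 and 3 were the highest libraries for Flt1, so leaving them out shapes this result, which is no evidence of a difference.

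Eng, the endothelial co-receptor of the TGF-β family, had controls of 237, 193, 202, 207 and 199 CPM and diabetics of 171, 162, 193 and 206. The groups overlapped (log2 fold change −0.18, SE 0.10, adjusted p = 0.329, edgeR's quasi-likelihood test). Ramp2, which encodes an accessory protein of the adrenomedullin receptor, was at 6.80 CPM in control 1 and at 1.33 to 2.60 in all other libraries. Its log2 fold change was −0.59 (SE 0.45, adjusted p = 0.466, edgeR's quasi-likelihood test) and 0.044 (SE 0.39, adjusted p = 0.957) without controls 1 and 3.

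Egfl7, a secreted factor of endothelium, had the larger of the 2 positive fold changes in the list. It was at 10.3, 11.01, 5.37, 8.02 and 5.93 CPM in the controls and at 18.0, 6.94, 17.2 and 10.0 in the diabetics. Diabetics 1 and 4 lay above every control, while diabetics 2 and 5 lay among them. The difference on the log2 scale was 0.67 (SE 0.31, unadjusted p = 0.0512, adjusted p = 0.266, edgeR's quasi-likelihood test), and 1.01 (SE 0.34, adjusted p = 0.0952) without controls 1 and 3. The 2 libraries with the most Egfl7 were not those with the most Cldn5.

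The junction genes divided in the same way. Ocln, a tight junction protein, was at 225, 226, 190, 231 and 176 CPM in the controls and at 186, 187, 207 and 184 in the diabetics. Its ratio of 1.31 was the smallest in the list, and the groups overlapped (log2 fold change −0.13, SE 0.10, adjusted p = 0.469, edgeR's quasi-likelihood test). Cdh5, the cadherin of endothelial adherens junctions, was at 28.6, 15.7, 17.6, 22.4 and 22.4 in the controls and at 10.9, 15.7, 14.01 and 20.5 in the diabetics. Diabetics 1 and 4 lay below every control, and diabetics 2 and 5 overlapped them (log2 fold change −0.48, SE 0.21, unadjusted p = 0.0443, adjusted p = 0.251).

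Cldn5, the claudin that seals the tight junctions of brain and retinal endothelium, was patchy. It was at 57.5, 27.5, 1.93, 0.214 and 0.129 CPM in the controls (609, 317, 18, 2 and 1 counts) and at 4.24, 4.18, 0.478 and 9.30 in the diabetics (43, 41, 3 and 93 counts). The span from control 1 to control 6 was 446-fold, the widest among the members with a count in every library. The diabetic libraries lay between the controls' extremes. The log2 fold change was −1.91 with an SE of 1.55 (adjusted p = 0.516, edgeR's quasi-likelihood test) and 2.56 with an SE of 1.05 (adjusted p = 0.169) without controls 1 and 3. In the assemblies the single exon of Cldn5 (chr11:86356294-86357718 on Rnor6) was at 18.5 and 9.05 TPM in controls 1 and 3 and at 0.0348 to 1.49 in 6 other libraries. It was listed at 0 in diabetic 5, where the count table held 93 counts, so a listed 0 there can be a failed estimate.

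Esam, an adhesion molecule of endothelial junctions and platelets, was the only member that passed the adjusted threshold in any comparison with edgeR, and only without controls 1 and 3. It was at 16.9, 10.7, 1.40, 0.214 and 0.644 CPM in the controls and at 4.34, 4.49, 2.87 and 3.30 in the diabetics. The 4 diabetic libraries lay close together, under controls 1 and 3 and above controls 4, 5 and 6. With all 9 libraries the log2 fold change was −0.68 (SE 1.05, adjusted p = 0.748), and without controls 1 and 3 it was 2.31 (SE 0.53, adjusted p = 0.0408, both from edgeR's quasi-likelihood test). Without control 1 alone it was 0.18. Controls 1 and 3 were left out because patchy members, Esam among them, were high in them. The adjusted p without them is shaped by that choice and is no evidence of a difference. In that comparison 3.92% of all genes passed, where 0.0681% did with all 9 libraries.

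Vwf, the clotting factor stored in endothelial granules, was at 24.2, 4.34, 0.967, 0.642 and 0.129 CPM in the controls and at 0.790, 1.33, 0.478 and 6.30 in the diabetics. Control 1 and diabetic 5 were each far above the rest of their groups. The log2 fold change of Vwf was −1.42 (SE 1.40, adjusted p = 0.599, edgeR's quasi-likelihood test) with all 9 libraries, 0.52 without control 1 alone and 1.92 (SE 0.97, adjusted p = 0.231) without controls 1 and 3. Emcn, a sialomucin of capillary and venous endothelium, had the same pair of highest libraries within the groups, at 5.00 CPM in control 1 and 0.6998 in diabetic 5. Emcn was at 0 in controls 5 and 6 and had 13 or fewer counts in every library but control 1.

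Of the barrier transporters, 1 was steady and 2 were patchy. Abcb1a, which encodes the efflux pump P-glycoprotein, was at 254, 230, 269, 262 and 231 CPM in the controls and at 159, 175, 180 and 223 in the diabetics. It was the 1 tested member whose groups did not overlap, with every diabetic library below every control. Among all genes tested, 4.16% had all diabetic libraries below all controls and 4.27% had them above. Its log2 fold change of −0.44 (SE 0.11, unadjusted p = 0.00153) missed the adjusted threshold (adjusted p = 0.0991, edgeR's quasi-likelihood test). It was −0.46 (SE 0.13, adjusted p = 0.0604) without controls 1 and 3. Without TMM factors the groups of Abcb1a overlapped. Abcb1a has a close rat paralog, Abcb1b, and reads that fit both could have been split or lost in the counting.

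Slco1a4, an organic anion transporter of the barrier, was at 43.4, 23.2, 3.98, 0.107 and 0 CPM in the controls and at 2.37, 5.92, 0 and 8.80 in the diabetics. It had no count in control 6 or diabetic 4, where a count of 0 allows up to 0.324 and 0.482 CPM before TMM scaling (3 counts of the total, counting error only). Its log2 fold change was −1.70 with an SE of 1.55 (adjusted p = 0.566, edgeR's quasi-likelihood test) and 1.64 with an SE of 1.54 (adjusted p = 0.536) without controls 1 and 3. Mfsd2a, the lipid transporter that restrains transcytosis at the barrier, was at 5.00 and 1.82 in controls 1 and 3 and at 1.40 in diabetic 5. It was at or below 0.714 elsewhere and was not tested.

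The endothelial transcription factors Sox17 and Sox18 were seen in the same few libraries. Sox17 had 34, 25 and 10 counts in control 1, control 3 and diabetic 5 and none in the other 6 libraries. Sox18 had 12, 17 and 12 counts in the same 3 libraries, 2 in control 4, 3 in diabetic 2 and none elsewhere. Neither gene had enough counts to be tested.

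**Figure D2:**
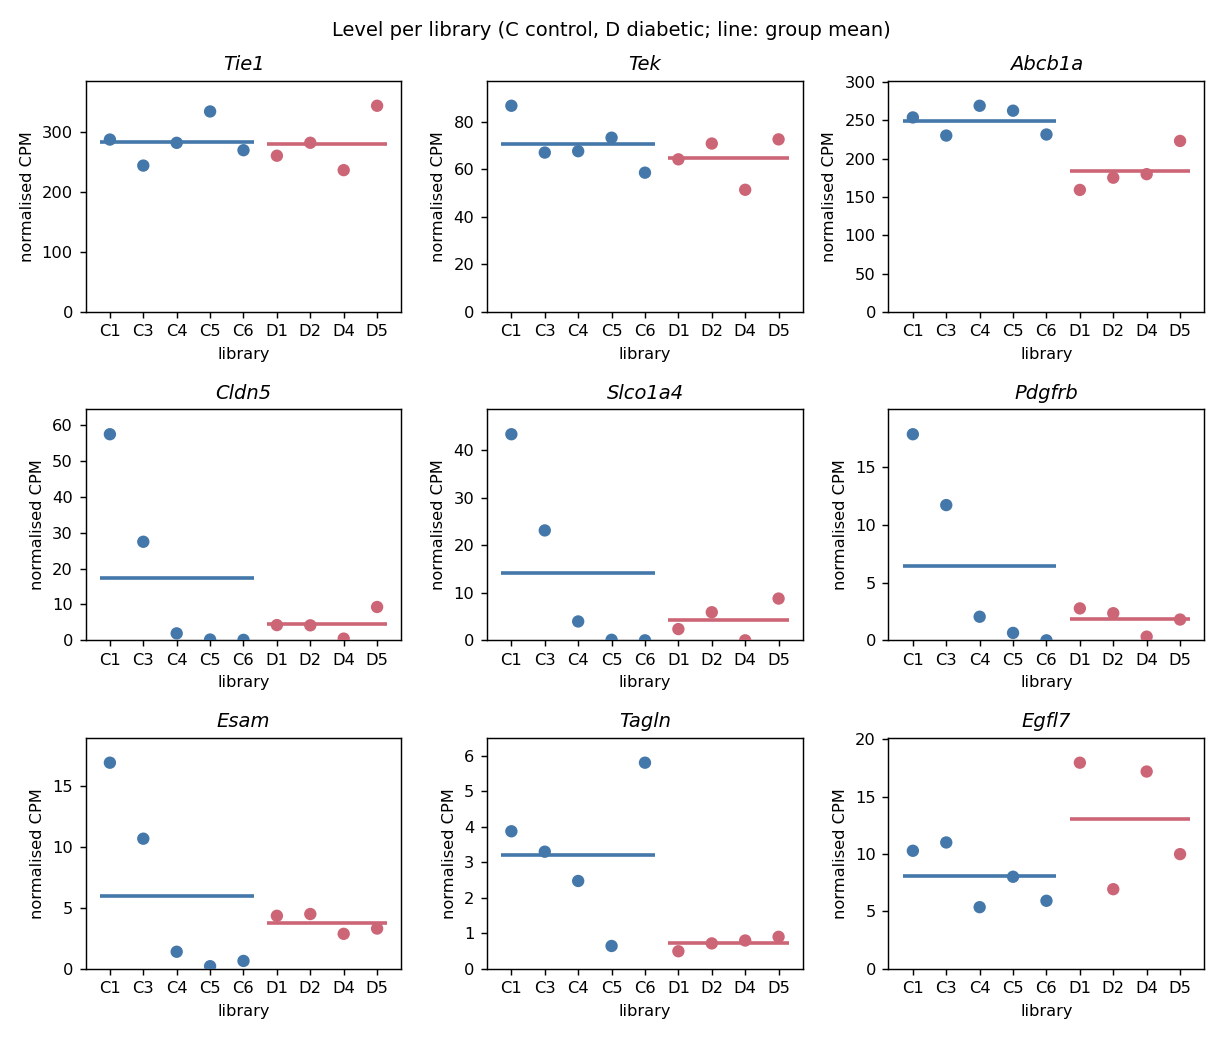
Normalised CPM (vertical axes, linear, from 0) of 9 genes in each library (C1 to C6 control, blue; D1 to D5 diabetic, red), with a line at each group mean. Tie1 and Tek are level, Abcb1a has all 4 diabetic libraries below all 5 controls, and Cldn5, Slco1a4, Pdgfrb and Esam are highest in C1 and C3. Tagln is highest in C6 and Egfl7 in D1 and D4.

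The pericyte genes were patchy except for Cspg4. Pdgfrb, the receptor by which pericytes are recruited to vessels, was at 17.8, 11.7, 2.04, 0.642 and 0 CPM in the controls and at 2.76, 2.35, 0.318 and 1.80 in the diabetics. Rgs5, a regulator of G protein signalling that marks pericytes, was at 11.7, 6.85, 0.752, 0.321 and 0 in the controls and at 1.28, 2.14, 0.159 and 0.800 in the diabetics. In both genes controls 1 and 3 lay above all diabetic libraries and control 6 had no count. Their log2 fold changes were −1.80 and −1.80 with SEs of 1.25 and 1.28 (adjusted p = 0.447 and 0.456, edgeR's quasi-likelihood test), and 1.01 and 1.59 (adjusted p = 0.480 and 0.268) without controls 1 and 3. Pdgfrb and Rgs5 had the highest Pearson r of any pair of patchy members over 9 libraries (0.98 on log2 CPM). Over the 7 without controls 1 and 3 it was 0.95, and Esam with Abcc9 had 0.96.

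Kcnj8 and Abcc9 encode the pore and the regulatory subunit of the ATP-sensitive potassium channel of pericytes and are neighbours in the genome. Kcnj8 was at 11.2, 2.25, 1.72, 0.428 and 0 CPM in the controls and at 1.09, 1.33, 0.318 and 0.200 in the diabetics. Abcc9 was at 15.9, 4.08, 0.967, 0 and 0.129 in the controls and at 1.68, 1.63, 0.796 and 1.10 in the diabetics. For both genes control 1 stood far above every other library. Without controls 1 and 3 the log2 fold change was 0.042 (SE 0.93) for Kcnj8 and 1.79 (SE 0.82) for Abcc9, against −2.05 (SE 1.195) and −1.68 (SE 1.31) with all libraries. None of the 4 values passed the adjusted threshold with edgeR (adjusted p = 0.984, 0.184, 0.366 and 0.495 in the order given).

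Notch3, the Notch receptor of mural cells, had 43, 26 and 11 counts in controls 1, 3 and 4 and 5 or fewer in every other library, and was not tested. Cspg4, which encodes the NG2 proteoglycan of pericytes and of oligodendrocyte precursors, was steady. It was at 106, 108, 87.2, 119 and 89.4 CPM in the controls and at 71.1, 85.4, 79.3 and 112 in the diabetics. Diabetics 1, 2 and 4 lay below every control and diabetic 5 lay among them (log2 fold change −0.23, SE 0.14, adjusted p = 0.376, edgeR's quasi-likelihood test).

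The contractile genes held Tagln, the patchy member least like the mean of the patchy and uneven members. Tagln, an actin-binding protein of smooth muscle also called SM22, was at 3.87, 3.29, 2.47, 0.642 and 5.80 CPM in the controls and at 0.494, 0.714, 0.796 and 0.8997 in the diabetics. Control 6, which had almost no Cldn5 and no Pdgfrb, was the highest library. Controls 1, 3, 4 and 6 lay above all diabetic libraries and control 5 lay among them. Its log2 fold change was −2.13 (SE 0.55, unadjusted p = 0.00204), with an adjusted p of 0.1004 from edgeR's quasi-likelihood test, and −1.99 (SE 0.64, adjusted p = 0.0874) without controls 1 and 3. In the authors' deposited table Tagln had a log2 fold change of −1.99 with an adjusted p of 0.0270, the only one of the 28 listed members under 0.05, where 2.10% of all genes in that table were.

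The other contractile genes followed controls 1 and 3. Myl9, a myosin light chain of smooth muscle, was at 13.6, 5.90, 1.50, 0.107 and 0.773 CPM in the controls and at 2.17, 1.63, 0.796 and 0.800 in the diabetics (log2 fold change −1.68, SE 1.06, adjusted p = 0.403, edgeR's quasi-likelihood test). Without controls 1 and 3 its log2 fold change was 0.79 (SE 0.70, adjusted p = 0.490). Des, which encodes the intermediate filament desmin, had 21 and 15 counts in controls 1 and 3 and none in the other 7 libraries. The diabetic group held 0 Des counts of 34470805, which allows up to 0.0870 CPM by counting error only. All 36 control counts came from controls 1 and 3, and the 3 other controls were also at 0. The group totals thus set no lower limit on a group difference. Without the count filter the log2 fold change of Des was −5.70 (SE 2.33, adjusted p = 0.323, edgeR's quasi-likelihood test). Acta2, the smooth muscle actin, had 9, 8 and 3 counts in control 1, control 3 and diabetic 2 and none elsewhere.

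Col4a1 and Col4a2 encode the paired chains of type IV collagen, the main collagen of vascular basement membrane. They lie head to head, and their annotated starts are 76 bases apart on GRCr8. The stretch between them is shown because both genes are read outward from it, with a GC box in capitals, given as CCGCCC, the reverse complement of GGGCGG (chr16:84885521-84885596, plus strand).
Col4a1 and Col4a2 shared start: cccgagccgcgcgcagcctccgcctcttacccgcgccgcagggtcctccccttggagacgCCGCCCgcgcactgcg

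Col4a1 was at 10.8, 8.15, 2.47, 1.60 and 1.55 CPM in the controls and at 0.494, 1.43, 0.478 and 4.40 in the diabetics. Col4a2 was at 7.46, 4.25, 0.967, 2.46 and 2.19 in the controls and at 1.28, 1.43, 0.318 and 0.800 in the diabetics. Both were highest in controls 1 and 3, but they parted in diabetic 5, which was the highest diabetic library for Col4a1 and the third for Col4a2. With all 9 libraries the log2 fold change was −1.50 (SE 0.83, adjusted p = 0.343) for Col4a1 and −1.81 (SE 0.58, unadjusted p = 0.00897, adjusted p = 0.145) for Col4a2 with edgeR's quasi-likelihood test. Without controls 1 and 3 these were −0.10 and −0.90 (adjusted p = 0.944 and 0.303). Their levels had a Pearson r of 0.71 over 9 libraries and 0.21 over the 7 without controls 1 and 3, given as a description.

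Igfbp7, a secreted protein of the vessel wall, was at 21.4, 12.1, 2.47, 1.39 and 2.71 CPM in the controls and at 8.39, 6.12, 2.55 and 4.20 in the diabetics. The diabetic libraries lay below controls 1 and 3, and diabetic 4 also lay below control 6. The log2 fold change was −0.59 (SE 0.82, adjusted p = 0.715, edgeR's quasi-likelihood test) and 1.31 (SE 0.43, adjusted p = 0.0936) without controls 1 and 3.

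Over the whole list, none of the 24 tested members passed an adjusted p of 0.05 with edgeR, where 8 of 11748 genes (0.0681%) did. At an unadjusted p below 0.05, 4 members were lower in diabetes (Abcb1a, Tagln, Col4a2 and Cdh5) and 0 were higher, against 10.0% and 8.94% of all genes. Of the 24, 22 had a log2 fold change below 0, as did 49.7% of all genes, and the median was −0.64 over the members and 0.0018 over all genes. DESeq2 called 3 members, namely Abcb1a, Tagln and Col4a2, all lower, where 4.95% of all genes passed. By class, the median was −0.13 over the 9 steady members, −0.59 over the 3 uneven ones and −1.75 over the 12 patchy ones tested, of which none was above 0. The split into classes used no group labels, but a gene within a 4-fold range cannot have a large fold change, so the classes' medians differ partly by construction.

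Without control 1 alone the members' median was −0.18. Without controls 1 and 3 the direction of many members turned. Of the 24, 14 were then above 0 and the median was 0.053. At an unadjusted p below 0.05, 5 members were higher (12.3% of all genes) and 2 were lower (14.9%). Esam alone passed the adjusted threshold, which 3.92% of all genes passed. Groups did not overlap for Esam and Flt1, higher, and Abcb1a, lower, against 11.1% and 11.7% of all genes. The fold change kept its sign without these libraries in 12 members, namely the 9 steady ones, Tagln, Col4a1 and Col4a2, and changed it in the other 12. Controls 1 and 3 were left out because patchy members were high in them, and they were the 2 highest libraries for 13 of the 24. The turned signs and the counts above are shaped by that choice and are no evidence of a difference.

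**Figure D3:**
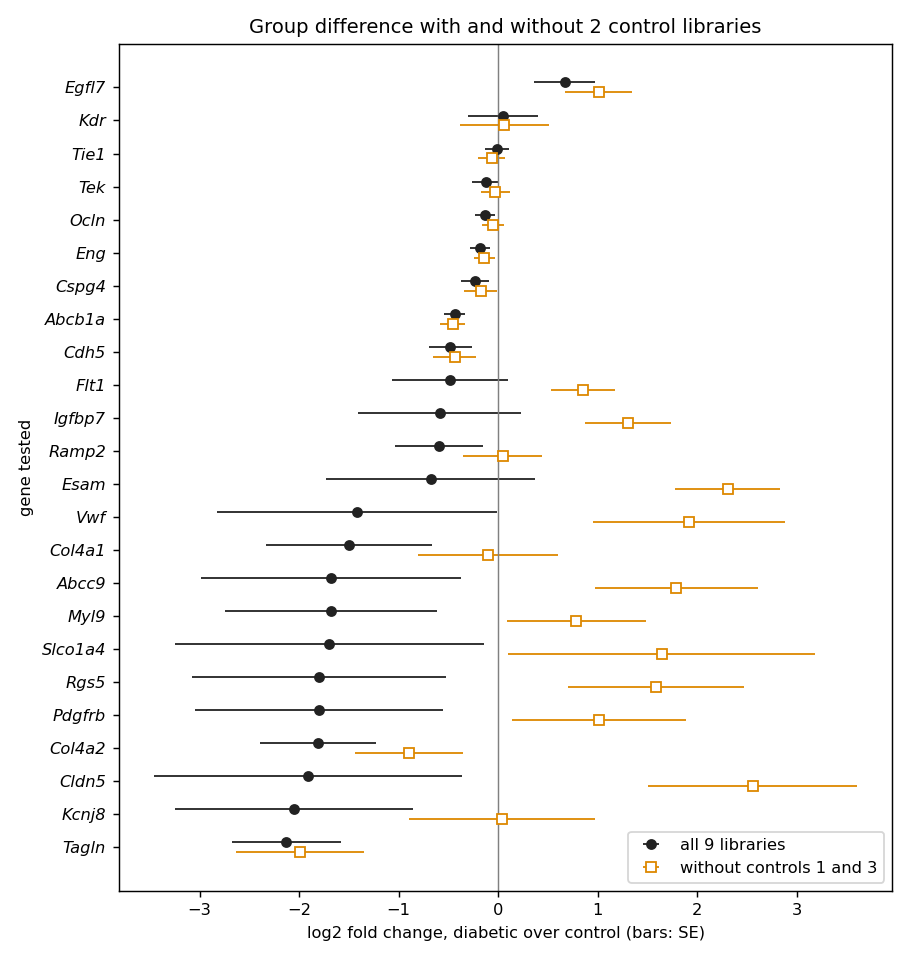
Log2 fold change, diabetic over control, of the 24 tested genes (horizontal axis; bars are 1 SE), with all 9 libraries (black circles) and without controls 1 and 3 (open orange squares). The steady genes at the top keep their sign, most patchy genes pass from below 0 to above 0, and Tagln, Col4a2 and Col4a1 stay below 0.

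Endothelial and mural counts were high in the same libraries, in unequal proportion. The summed level of the 8 patchy endothelial members was 156, 72.2, 8.60, 1.18 and 1.03 CPM in controls 1, 3, 4, 5 and 6 and 12.1, 17.0, 3.98 and 31.99 in diabetics 1, 2, 4 and 5. The 7 patchy mural members other than Tagln summed to 76.3, 34.3, 8.17, 1.50 and 1.29 in the controls and to 9.48, 9.18, 2.39 and 5.10 in the diabetics. For both cell types control 1 was highest, control 3 second and controls 5 and 6 lowest. The ratio of endothelial to mural counts lay between 0.786 and 2.10 in 8 libraries and was 6.27 in diabetic 5, from 320 endothelial and 51 mural counts. In sorted bulk samples, fewer vascular cells and less RNA per vascular cell cannot be told apart.

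**Figure D4:**
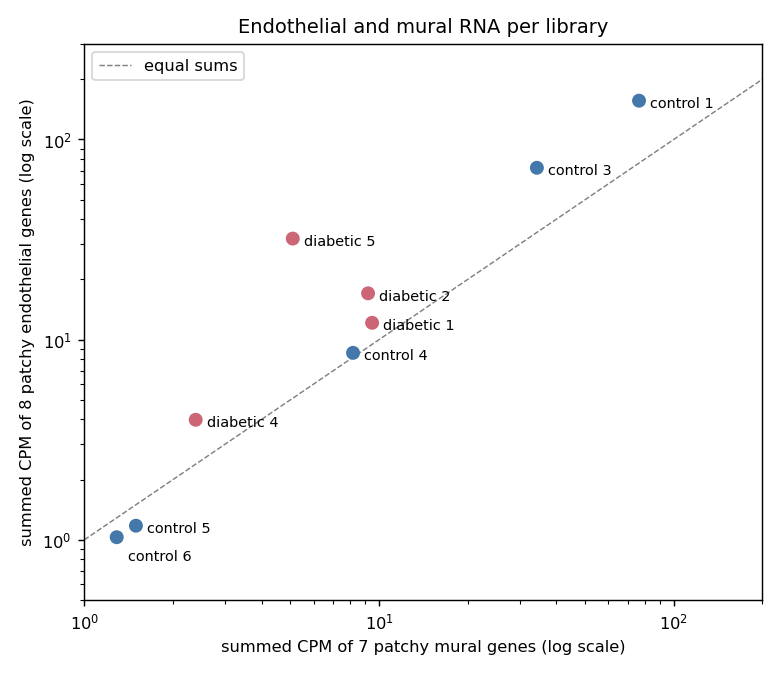
Summed normalised CPM of 8 patchy endothelial genes (vertical axis, log scale) against that of 7 patchy mural genes, Tagln left out (horizontal axis, log scale). Each point is a library, control blue and diabetic red, with a dashed line at equal sums. Control 1 and control 3 lie at the upper right, control 5 and control 6 at the lower left, and diabetic 5 lies highest above the line.

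Most patchy members moved together across libraries, and the steady members followed them to differing degrees. Over the 153 pairs of patchy members the median Pearson r of log2 CPM was 0.78 over 9 libraries and 0.33 over the 7 without controls 1 and 3. For the 162 pairs of a patchy with a steady member it was 0.25 over 9 libraries and 0 over 7, and for the 36 pairs of steady members 0.35 and 0.20. Des had no count in those 7 libraries, so its pairs have no defined r there and were entered as 0. The 7-library medians of pairs with a patchy member, 0.33 and 0, include these entries and are not exact. Some pairs across the classes were alike, among them Tek with Vwf (r = 0.76) and Cspg4 with Col4a1 (0.73). Tagln had a median r of 0.33 with the other patchy members. All these values share the same libraries and depths, controls 1 and 3 stand apart from the rest, and they are descriptions with no test. Against the mean of the patchy and uneven members, Cldn5 had r = 0.96, Rgs5 0.94, Col4a2 0.64 and Tagln 0.36, and the steady Tek had 0.66 and Tie1 −0.068.

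The 10 other genes whose pattern was most like the mean of the patchy and uneven members were Cdc45, Map4k2, Sdpr, Akap2, Epas1, Vwa1, Slco1c1, Arhgap29, Fstl1 and Cyyr1 (r of 0.92 to 0.97 over 9 libraries). The r does not measure the size of a change. Map4k2 ran only from 29.5 CPM in control 6 to 40.0 in control 1. Slco1c1 is the thyroxine transporter of barrier endothelium, Epas1 encodes the hypoxia factor HIF-2α, and Sdpr is a protein of caveolae. Cdc45, a DNA replication factor at the top of this order, is the neighbour of Cldn5 in the genome. It had 526, 359, 27, 21 and 12 counts in the controls and 65, 73, 13 and 127 in the diabetics. The order of its libraries was close to that of Cldn5, and the strand setting of the counting is not given in the sources used here. Whether the counts of either gene include reads of the other was not tested. The 10 genes most like Tek were Trpv3, Tjp1, Zfp157, Trmu, Lpar4, Caskin2, LOC100909609, Tmem171, Endod1 and Kank3 (r of 0.89 to 0.92), of which Tjp1 encodes the tight junction protein ZO-1.

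Related genes of the vessel wall were read from lists of their own. Of 74 genes in 4 further lists, 70 matched and 40 were tested. None passed the adjusted threshold with edgeR, 7 were lower and 1 was higher in diabetes at an unadjusted p below 0.05, where 10.0% of all genes were lower and 8.94% higher. Their median log2 fold change was −0.17. Tgfbr1, the type I receptor for TGF-β, was at 977, 1119, 1403, 1456 and 1340 CPM in the controls and at 903, 857, 702 and 949 in the diabetics. Every diabetic library lay below every control, as in 4.16% of all genes (log2 fold change −0.56, SE 0.13, adjusted p = 0.0897, edgeR's quasi-likelihood test). The order of the controls differed from that of the patchy members, since control 1 was the lowest control.

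By list, 3 of 15 tested genes among the other endothelial genes were lower and 1 was higher at an unadjusted p below 0.05, against the same 10.0% and 8.94% of all genes. The lower ones were Cav1, which encodes caveolin (log2 fold change −0.49, SE 0.16, adjusted p = 0.152), Slc2a1, the glucose transporter of the barrier (−0.79, SE 0.29, adjusted p = 0.195), and the efflux pump Abcg2 (−0.28, SE 0.10, adjusted p = 0.188, all from edgeR's quasi-likelihood test). The higher one was Icam2, an adhesion molecule of endothelium and leukocytes (0.59, SE 0.20, adjusted p = 0.154). Among the VEGF, angiopoietin, PDGF and Notch genes 2 of 13 were lower, among the other mural genes 1 of 4 (Myh11, the myosin heavy chain of smooth muscle, −1.55, SE 0.53, adjusted p = 0.159), and among the other basement membrane genes 1 of 8.

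The libraries had 6228756 to 11332823 counts, and controls 1 and 3 were the deepest, followed by control 4. Microglial markers were all detected and summed to 27509 to 31185 CPM in the controls and 26462 to 28261 in the diabetics. Perivascular fibroblast markers were at most 11.6 CPM, in control 1, where Col3a1 had 59 counts. Their sum was 3.53 to 11.6 in the controls and 4.498 to 5.41 in the diabetics, and Col1a2, Dcn and Lum were at 0 in all libraries. Col6a3, the most abundant gene of this list, went the other way from Col3a1. It was lowest in control 1 (1.89 CPM) and highest in control 4 (6.55 CPM). Platelet markers summed to 11.7 to 27.1 and 20.4 to 44.7, led by Pf4, with Gp1bb, Gp6 and Tubb1 at 0. Erythrocyte markers summed to 0 to 8.21 and 0 to 11.02, highest in diabetic 2 and control 1. Border macrophage markers summed to 374 to 764 in the controls and 642 to 1420 in the diabetics. Photoreceptor markers were at 237 to 1269 and 361 to 1803, with control 3 the lowest library. Müller glia markers were at 2410 to 2633 and 2018 to 2219, led by Glul and Slc1a3. Over all libraries Glul was at 1061 to 1308 CPM and Slc1a3 at 599.8 to 974. In the same list Rlbp1 was at 24.2 to 60.2 and Kcnj10 at 0 to 0.592. Inner retinal neuron markers were at 72.0 to 166 and 108 to 324, and astrocyte markers at 4.17 to 13.02 and 7.20 to 15.8. Pigment epithelium markers were at 1280 to 1808 and 1548 to 1790, nearly all Best1. The part of these cells, and of depth, in the members' levels was not tested.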

How the data were processed

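The authors deposited raw gene counts for the 9 libraries, their own comparison (log2 fold changes, p-values and adjusted p-values) and 1 transcript assembly per library with TPM values, made by StringTie 1.2.4 on Rnor6 per the file headers. The submitters' processing notes also name TopHat2 2.0.14 and edgeR. The strand setting is not given in the sources used here.

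Counts were filtered with filterByExpr (minimum count 10, minimum total 15), which kept 11748 of 17822 genes with any count. They were scaled by TMM and tested on the whole table with the edgeR 4.0.16 quasi-likelihood test (limma 3.58.1, R 4.3.3), 5 control against 4 diabetic libraries, with Benjamini-Hochberg adjustment over all genes tested and a threshold of 0.05. Standard errors are the fold change over the square root of F, and correlations use log2 CPM with a prior count of 2. Total counts of 6228756 to 11332823 per library limit genes with few counts. No 2 libraries agreed within sampling noise. The alternatives were DESeq2 1.42.0, no TMM factors, no filter, each library left out, controls 1 and 3 left out, and a replicate block.

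All members were named. Pathway genes were named by smallest unadjusted p below 0.05, up to 5 per direction, plus the 10 genes most alike in pattern. The members and lists were chosen with earlier results of these data known.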

Additional observations from a re-analysis of the deposited data

Results flagged for a closer look

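Within each group, a library was singled out when its gap to the nearest other library was large for the group's range by Dixon's 95% criterion. Of 61 combinations of member and group, 10 met it. Chance meets it in about 1 in 20 groups of normally spread values, and the share over all genes was not computed. Where the other libraries are at 0, as for Sox17 and Acta2 here, any count meets it. Control 1 accounted for 5 of them. It was the highest control for Ramp2 (6.80 CPM, next 2.60), Emcn (5.00, next 1.13), Vwf (24.2, next 4.34), Kcnj8 (11.2, next 2.25) and Abcc9 (15.9, next 4.08). Diabetic 5 accounted for 3, all endothelial genes: Emcn (0.6998 CPM, next 0.197), Vwf (6.30, next 1.33) and Sox17 (1.00, the others at 0). The remaining 2 were Ocln in diabetic 4 (207 CPM, next 187), where the steady gene was high in a library poor in patchy members, and Acta2 in diabetic 2 (0.306 CPM from 3 counts, the others at 0).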

How the results depend on the processing

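With all 9 libraries 8 genes were called. This was 581 with DESeq2, 29 without TMM factors, 42 without the filter, 0 to 114 with 1 library left out (114 without control 1), and 461 without controls 1 and 3. Members called were 0, against 3 with DESeq2 and 1 without controls 1 and 3. Members at an unadjusted p below 0.05 were 4 of 24 (18.9% of all genes), against 7 of 31 without the filter (14.6%), 7 of 24 without controls 1 and 3 (27.2%), and 3 to 8 of 24 with 1 library left out (8 without diabetic 5, 19.4%). Members whose groups did not overlap were 1 (8.44% of all genes), against 0 without TMM factors (8.32%), 3 without controls 1 and 3 (22.8%), and 1 to 3 with 1 library left out (3 without diabetic 5, 14.5%). Leaving out TMM factors moved the median of all genes from 0.0018 to 0.12. The members' median of −0.64 became 0.053 without controls 1 and 3, and −1.41 over 31 members without the filter. With 1 library left out it ran from −0.92 (without control 5) to −0.18 (without control 1).

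Of 360 fold changes under alternatives, 333 kept their direction and call, 24 changed sign and 3 gained a call with the same sign. Among the sign changes, Esam also gained a call without controls 1 and 3. Without controls 1 and 3 the log2 fold change was 0.85 for Flt1, 0.044 for Ramp2, 2.56 for Cldn5, 2.31 for Esam, 1.92 for Vwf, 1.64 for Slco1a4, 1.01 for Pdgfrb, 1.59 for Rgs5, 0.042 for Kcnj8, 1.79 for Abcc9, 0.79 for Myl9 and 1.31 for Igfbp7. With 1 library left out, Esam ran from −0.99 to 0.18, Vwf from −2.76 to 0.52 and Igfbp7 from −0.89 to 0.18, each highest without control 1. Kdr ran from −0.36 (without diabetic 1) to 0.23 (without diabetic 4), and Tie1 from −0.13 (without diabetic 5) to 0.060 (without diabetic 4). Tie1 was 0.099 without TMM factors. The cause was not tested.

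The replicate numbers shared by the groups (1, 4 and 5) did not pair the libraries (r of their deviations 0.20, −0.11 and 0.016). The fit with the replicate block called 0 genes, as did the same 6 libraries without the block, an alternative chosen after seeing the data. With the block the fold change was 0.16 for Flt1 and 0.35 for Esam. Patchy members had fewer than 10 counts in at least 1 library each, which limits what their fold changes can show.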
